A study of Mus musculus with 12 samples.

Results

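The genes described here are 10 genes of natural killer (NK) cell receptors and regulators, and their transcripts were counted in MC38 tumors of 4 treatment groups. They were chosen by symbol from the 23282 lines of the count table: the receptors Klrk1, Klrc1, Klrd1, Klre1, Klrb1c and Ncr1, the transcription factors Eomes and Tbx21, the cytokine Il15 and the receptor chain Il2rb. All 10 were in the table, and all 10 were among the 13464 genes that passed the filter on low counts. MC38 is a mouse colon carcinoma line, grown here subcutaneously in the right flank of female C57BL/6 mice that were wild type and 6 weeks old by the labels. Con mice received saline vehicle and an IgG2a isotype antibody. SFIH mice received SFIH, a plant fraction from Inula helenium rich in sesquiterpene lactones, at 50 mg/kg into the peritoneum every day, PD mice received 200 μg of an antibody against PD-1, the inhibitory receptor of activated T cells, 2 times a week, and Comb mice received both. The paper lists the SFIH group as given the IgG2a antibody as well. Each group had 3 tumors, taken on day 19 and numbered 1 to 3 in the labels. The labels do not state that every tumor came from its own mouse, so the p-values measure the spread between these tumors.

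NK cells are innate lymphocytes that kill stressed or transformed cells without prior priming, and their activity is set by the balance of activating and inhibitory receptors. Klrk1 encodes NKG2D, an activating receptor for stress-induced ligands of the Raet1 family. Klrc1 (NKG2A) pairs with Klrd1 (CD94) into an inhibitory receptor for a non-classical MHC molecule. Klre1 is a lectin-like receptor of NK cells, Klrb1c encodes NK1.1, the surface marker of NK cells in C57BL/6 mice, and Ncr1 encodes the activating receptor NKp46. Eomes and Tbx21 (T-bet) are related T-box factors that direct NK cell maturation, and Il15, read through the shared chain Il2rb, is the main survival cytokine of NK cells. Activated CD8 T cells also carry NKG2D, NKG2A, CD94, T-bet, Eomes and Il2rb, while Ncr1 is the most restricted to NK cells and other innate lymphocytes.

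Total counts were between 7870741 and 12261032 per tumor, and the 10 genes had between 183 (Ncr1) and 3160 (Eomes) counts over the 12 tumors. Levels are CPM, the counts scaled to a common library total, or log2(CPM + 1). The labels name no molecular identifiers, so reads may include copies of 1 molecule. The labels call the material tumor cells, but RNA was taken from whole tumor tissue, and the 4 leukocyte markers (Ptprc, Cd52, Coro1a and Laptm5) summed to between 222 and 2770 CPM. In such bulk RNA, fewer cells of a type and less RNA per cell cannot be told apart. Comb tumor 3 stood apart: its TMM factor, the scaling for composition, was 0.758 and the lowest of all 12, its skeletal muscle markers summed to 5060 CPM against 7.7 to 14 CPM in Con (670 CPM in Comb tumor 1 and 136 CPM in PD tumor 1), and 14503 genes were detected in it against 15564 to 16465 elsewhere. Its adipocyte markers summed to 953 CPM (389 CPM in Comb tumor 2, 37.2 to 57.5 CPM in Con) and its skin markers to 306 CPM (2.83 to 4.79 CPM in Con). The main Comb results are therefore also given without it. The epithelial markers of the carcinoma (6 genes) summed to between 4.58 and 5.47 CPM in Con and to at most 86.8 CPM, in Comb tumor 3.

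The 5 Klr genes lie within 1 stretch of chromosome 6, from Klrb1c (chr6:128778485-128789215) over Klre1 (chr6:129577905-129585827), Klrd1 (chr6:129591782-129598775) and Klrk1 (chr6:129610323-129623864) to Klrc1 (chr6:129666015-129678973), and Ncr1 lies at chr7:4337724-4345164, in the GENCODE M21 annotation of GRCm38. The build behind the counts is not given in the sources used here. RefSeq promoter windows of GRCm38.p6, from 250 bases before the start to 50 bases after it, were found for 7 of the 10 genes. They were searched on both strands for a RUNX motif (TGTGGTT), a T-box motif (TCACACC), a STAT motif (TTCNNNGAA) and an ETS motif (ACCGGAAGT), and no 2 matches overlapped. The windows of the 5 receptor genes that had one are shown, because 3 of the 5 held the RUNX letters, in capitals:
Ncr1, chr7:4337474-4337773, plus strand: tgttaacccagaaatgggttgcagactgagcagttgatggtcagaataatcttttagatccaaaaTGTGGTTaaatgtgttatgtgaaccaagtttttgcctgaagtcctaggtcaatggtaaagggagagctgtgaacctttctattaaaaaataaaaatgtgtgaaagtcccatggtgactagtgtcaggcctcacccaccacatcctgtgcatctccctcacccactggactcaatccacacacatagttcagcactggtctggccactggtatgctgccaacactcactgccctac
Klrk1, chr6:129623815-129624114, minus strand: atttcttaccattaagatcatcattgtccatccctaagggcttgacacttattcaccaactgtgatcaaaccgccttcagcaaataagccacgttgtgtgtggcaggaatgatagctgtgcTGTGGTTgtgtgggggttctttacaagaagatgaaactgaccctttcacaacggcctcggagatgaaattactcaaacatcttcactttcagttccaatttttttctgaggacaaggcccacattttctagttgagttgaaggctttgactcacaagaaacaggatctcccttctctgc
Klre1, chr6:129577963-129578262, plus strand: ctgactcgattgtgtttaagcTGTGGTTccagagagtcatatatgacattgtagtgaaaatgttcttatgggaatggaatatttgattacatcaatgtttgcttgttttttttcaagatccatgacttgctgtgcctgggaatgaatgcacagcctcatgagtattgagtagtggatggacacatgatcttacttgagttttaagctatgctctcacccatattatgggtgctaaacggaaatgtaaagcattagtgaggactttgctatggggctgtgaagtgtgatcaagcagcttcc
Klrc1, chr6:129678924-129679223, minus strand: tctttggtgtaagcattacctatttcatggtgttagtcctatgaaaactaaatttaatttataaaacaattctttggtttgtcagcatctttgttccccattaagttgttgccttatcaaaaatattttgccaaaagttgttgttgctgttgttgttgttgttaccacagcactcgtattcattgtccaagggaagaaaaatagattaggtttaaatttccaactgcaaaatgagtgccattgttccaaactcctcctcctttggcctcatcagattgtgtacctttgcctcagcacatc
Klrb1c, chr6:128788592-128788891, minus strand: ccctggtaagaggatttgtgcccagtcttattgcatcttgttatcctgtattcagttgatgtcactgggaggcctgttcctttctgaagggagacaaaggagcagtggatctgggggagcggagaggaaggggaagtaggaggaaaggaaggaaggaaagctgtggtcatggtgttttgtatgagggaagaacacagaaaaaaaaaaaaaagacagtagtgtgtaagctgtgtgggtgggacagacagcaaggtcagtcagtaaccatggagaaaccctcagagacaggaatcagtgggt
The RUNX letters began at position -185 from the start of Ncr1, -129 from that of Klrk1 and -229 from that of Klre1, always on the strand of the gene. They were absent from the windows of Klrc1, Klrb1c, Eomes and Tbx21, and from the window of another listed start of Klre1, and occurred in 5.27% of all 32851 promoter windows. The T-box, STAT and ETS letters (in 3.98%, 8.3% and 1.1% of all windows) were in none of the members' windows. A match is a description of letters, and none of these windows was measured here.

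The 5 Klr genes among the members had higher mean levels in Comb than in Con, though edgeR called none of them. In Klrk1 these groups did not overlap. Klrk1 was at 8.03, 4.89 and 8.48 CPM in Con, at 16.6, 7.09 and 4.19 CPM in SFIH, at 8.6, 17.8 and 11.1 CPM in PD, and at 13.2, 28.0 and 53.9 CPM in Comb. Every Comb tumor and every PD tumor was above every Con tumor (in PD, 5.76% of all genes were separated this way), while SFIH overlapped with all other groups. The Klrk1 log2 fold change of Comb against Con was 2.53 (SE 0.63, adjusted p = 0.0671 with edgeR's quasi-likelihood test), and that of PD against Con was 0.93 (SE 0.61), or 0.52 without PD tumor 2.

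Klrc1, the inhibitory partner of CD94, had a wider spread. Its levels were 7.3, 4.47 and 8.08 CPM in Con, 17.9, 5.61 and 6.04 CPM in SFIH, 9.14, 22.2 and 10.9 CPM in PD, and 7.73, 32.1 and 63.8 CPM in Comb. All PD tumors were above all Con tumors, but Comb tumor 1 lay within the range of Con. The log2 fold change of Klrc1 between Comb and Con was 2.78 (SE 0.77, adjusted p = 0.0726). Of the 75-base windows in the last 500 bases of Klrc1, 42.0% also occur in Klrc2, so part of its reads may have been placed by the counting rule; Klrc2 itself had at most 2 counts in a tumor and Klrc3 had 0 counts in all 12, and no such sharing was found for the other 9 genes.

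Klrd1, which encodes CD94, differed least between Comb and Con among the 5 Klr genes. It was at 4.56, 4.99 and 9.48 CPM in Con, 14.8, 6.93 and 6.86 CPM in SFIH, 9.03, 16.8 and 8.58 CPM in PD, and 6.54, 24 and 14.8 CPM in Comb. The highest tumor was Comb 2, not Comb 3, and Con and Comb overlapped. The log2 fold change was 1.58 (SE 0.54, adjusted p = 0.109), and without Comb tumor 3 it was 1.5.

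Klre1 and Klrb1c were low in Con and higher in all Comb tumors, as were 7.6% of all genes. Klre1 was at 1.73, 1.46 and 3.89 CPM in Con, 5.63, 2.97 and 1.64 CPM in SFIH, 1.18, 4.96 and 3.45 CPM in PD, and 5.05, 7.93 and 19.2 CPM in Comb. In Klre1 every Comb tumor was also above every PD tumor, as in Ncr1 and in 4.25% of all genes. Klrb1c was at 1.09, 0.208 and 1.2 CPM in Con, 3.75, 1.15 and 0.512 CPM in SFIH, 1.18, 0.889 and 2.3 CPM in PD, and 1.78, 6.6 and 32.3 CPM in Comb. Con tumor 2 held 2 reads of Klrb1c and Comb tumor 3 held 355, which was 79.4% of the summed Comb level. The log2 fold changes of Comb against Con were 2.57 (SE 0.73, adjusted p = 0.0747) for Klre1 and 4.44 (SE 1.14, adjusted p = 0.0683) for Klrb1c.

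**Figure D1:**
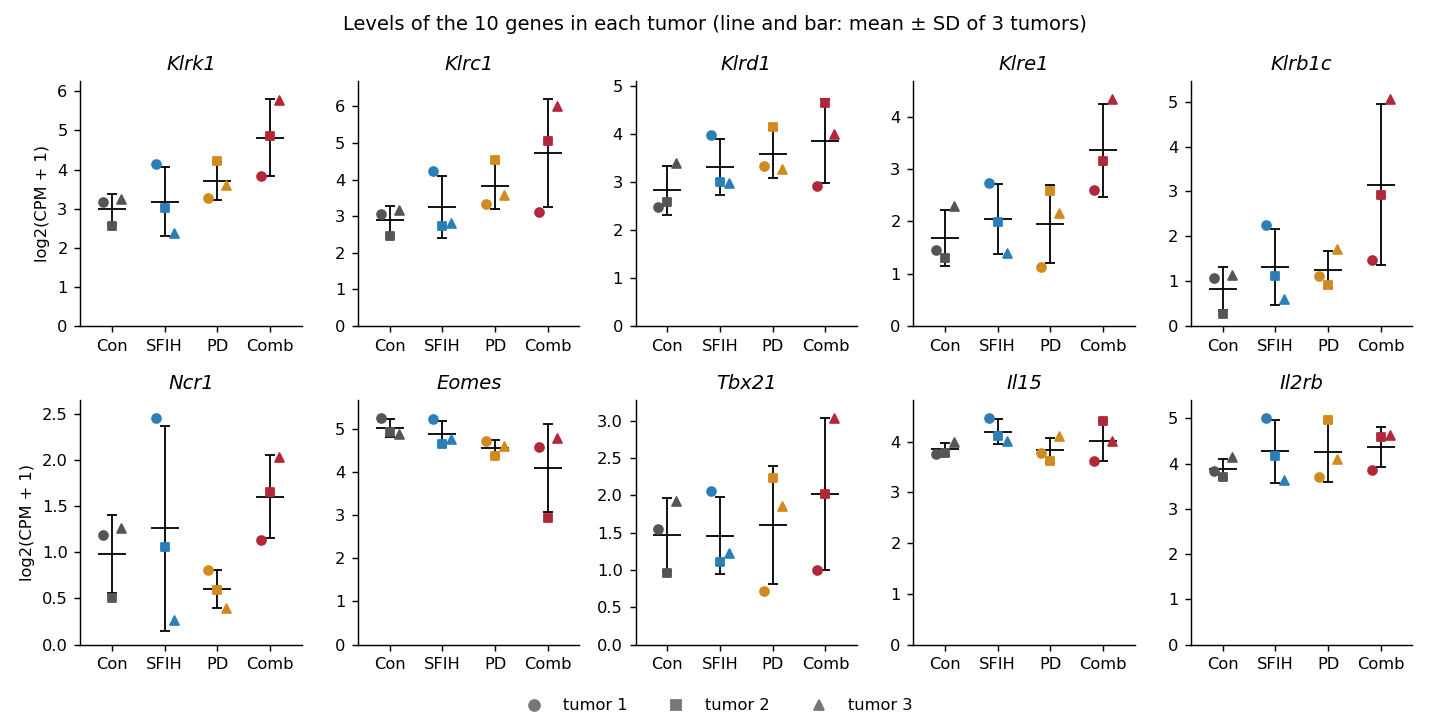
Level of each gene, log2(CPM + 1), in the 12 tumors by group, with each symbol a tumor and the line and bar the mean and SD of 3 tumors. Klrk1, Klre1 and Klrb1c lie above the Con range in all 3 Comb tumors, Eomes lies below it in PD and Comb, and Ncr1 is highest in SFIH tumor 1, at 4.49 CPM.

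Ncr1, the gene most restricted to NK cells in this list, followed another order. The 3 Con tumors held 14, 4 and 14 counts, the SFIH tumors 55, 13 and 2, the PD tumors 7, 4 and 3, and the Comb tumors 12, 21 and 34. Its highest and lowest levels were both in SFIH, at 4.49 CPM in tumor 1 and 0.205 CPM in tumor 3, which was 21.9-fold apart. The mean was 1.03 ± 0.535 CPM in Con (SD, n = 3), 1.92 ± 2.26 CPM in SFIH, 0.525 ± 0.22 CPM in PD and 2.14 ± 0.954 CPM in Comb, so only PD and Comb were separated. The log2 fold change was 2.24 for Comb against PD (SE 0.95, adjusted p = 0.26), 1.39 for Comb against Con (SE 0.89, adjusted p = 0.334; 0.87 without Comb tumor 3) and -0.85 for PD against Con (SE 0.95). At 2 to 55 counts per tumor, Ncr1 had the fewest reads of the 10 genes, and SFIH tumor 3 and PD tumor 3 were at or under 3 counts.

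Eomes was lower with anti-PD-1 on the CPM scale, while Tbx21 was not. Eomes was at 37.2, 29.2 and 28.3 CPM in Con, 36.3, 23.9 and 26.3 CPM in SFIH, 25.2, 19.6 and 23.1 CPM in PD, and 22.9, 6.6 and 26.4 CPM in Comb. All PD and all Comb tumors were below all Con tumors, as were 14.8% of all genes in PD and 22.2% in Comb, and Comb tumor 2 was far below the rest. Over the 6 tumors with anti-PD-1 against the 6 without, compared within each level of SFIH, the difference in log2(CPM + 1) was -0.62 (exact permutation p = 0.015, two-sided; 24.6% of all genes had a p under 0.05 in this test, in either direction), but with TMM scaling it was -0.44 (exact permutation p = 0.165), and without SFIH tumor 1 or SFIH tumor 3 the exact permutation p was 0.125 or 0.075. Without Comb tumor 2 the difference was -0.33. The fitted log2 fold changes from edgeR, which include TMM, were -0.46 for Comb (SE 0.42, adjusted p = 0.479) and -0.39 for PD (SE 0.42) against Con. The Comb value was -0.99 without Comb tumor 3 and -0.0717 without Comb tumor 2, and the PD value was -0.25 without Con tumor 1. Eomes overlaps the antisense gene Gm33460 in GENCODE M21, and whether the counting used strand is not given in the sources used here.

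Tbx21 had 6 to 79 counts per tumor. It was at 1.92, 0.936 and 2.79 CPM in Con, 3.18, 1.15 and 1.33 CPM in SFIH, 0.645, 3.68 and 2.62 CPM in PD, and 0.991, 3.05 and 7.19 CPM in Comb. The groups overlapped throughout, and its log2 fold change of Comb against Con was 1.39 (SE 0.84, adjusted p = 0.306), or 0.32 without Comb tumor 3.

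The cytokine and its receptor chain had smaller fitted differences than the Klr genes in Comb against Con, with intervals that include 0. Il15 spanned 11.3 to 21.2 CPM over the 12 tumors, a 1.88-fold range and the narrowest of the 10 genes, and its means were 13.5 ± 1.32 CPM in Con (SD, n = 3), 17.6 ± 3.17 CPM in SFIH, 13.4 ± 2.53 CPM in PD and 15.5 ± 4.48 CPM in Comb. All SFIH tumors were above all Con tumors, at 15.2 to 21.2 against 12.6 to 15 CPM (7.55% of all genes were separated this way), with a log2 fold change of 0.38 (SE 0.27). The value for Comb against Con was 0.51 (SE 0.27, adjusted p = 0.253), or 0.77 without Comb tumor 1 and 0.28 without Comb tumor 2. Il2rb was at 12.1 to 16.6 CPM in Con, 11.4 to 31.3 CPM in SFIH, 11.9 to 30.1 CPM in PD and 13.5 to 23.7 CPM in Comb. Its groups overlapped, and the log2 fold change of Comb against Con was 0.85 (SE 0.45, adjusted p = 0.256; 95% interval -0.14 to 1.83) and that of PD against Con 0.60 (SE 0.45; 0.0591 without PD tumor 2).

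**Figure D2:**
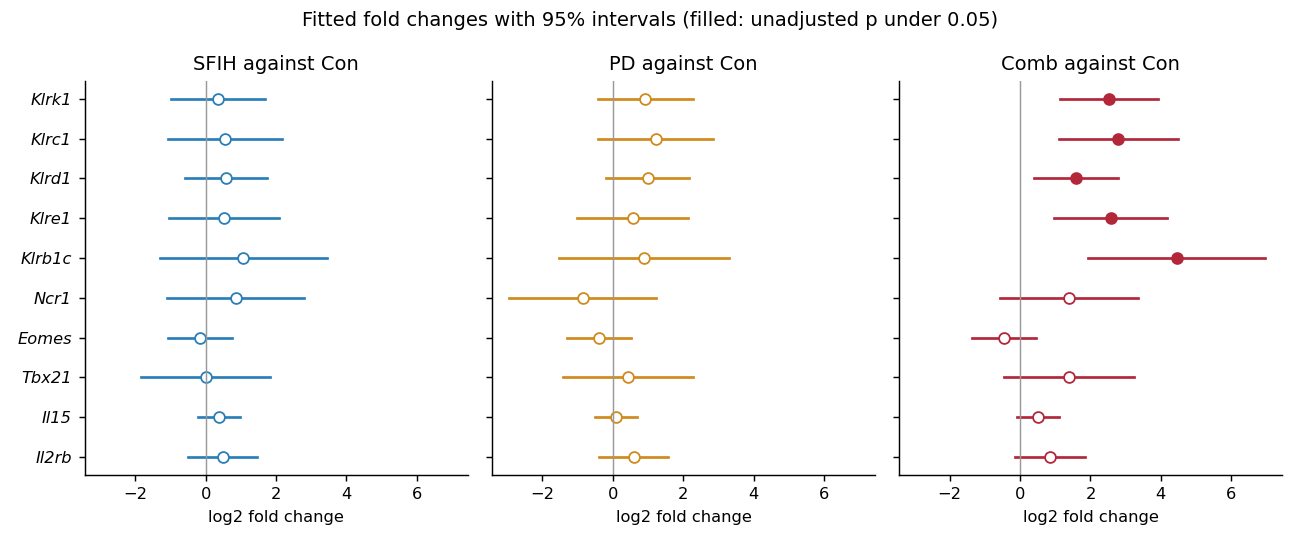
Log2 fold change of each gene against Con from the edgeR fit, with 95% intervals, for SFIH, PD and Comb. The filled points, with an unadjusted p under 0.05, are the 5 Klr genes in Comb, from 1.58 (Klrd1) to 4.44 (Klrb1c), and none in SFIH or PD.

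Across the 10 genes, the question of the design was whether the combination differed from either treatment and from the control. With edgeR and adjustment over all 13464 genes, 0 of the 10 passed an adjusted p of 0.05 in any of the 8 comparisons, and neither did any other gene (0.0% of genes called in each). At an unadjusted p under 0.05, 5 of the 10 were higher in Comb than in Con, the 5 Klr genes, beside 18.0% of all genes tested. The count was 4 of 10 for Comb against PD (Klrb1c, Klre1, Klrk1 and Ncr1, beside 12.9% of genes) and 4 of 10 for Comb against SFIH (Klrb1c, Klrc1, Klre1 and Klrk1, beside 14.8%). The count for Comb against PD was 0 without Comb tumor 3, 1 without PD tumor 1 and 2 without PD tumor 3, while the share of all genes higher was 4.11%, 6.46% and 6.89% in those fits. The count for Comb against SFIH was 2 without Comb tumor 3 (Klrk1 higher and Eomes lower), beside 7.16% of genes higher. No member was below that threshold in SFIH or in PD against Con. With DESeq2, all 5 Klr genes rose in Comb against Con at an adjusted p under 0.05, from 0.000536 (Klrb1c) to 0.035 (Klrd1), beside 11.3% of genes called higher. DESeq2 called Klrb1c higher in Comb than in PD (adjusted p = 0.0284, beside 2.32% of genes) and Klrb1c, Klrk1, Klrc1 and Klre1 higher in Comb than in SFIH (beside 7.18%). Without Comb tumor 3, DESeq2 called none of these (0.0754% of genes were called higher against PD and 0.571% against SFIH): Klrb1c had no adjusted p against PD, and against SFIH the adjusted p of the 4 genes ran from 0.204 (Klrk1) to 0.564 (Klrb1c). These 3 comparisons share the Comb tumors. All Comb tumors were above all Con tumors in 3 members, Klrk1, Klre1 and Klrb1c (7.6% of genes), and above all PD tumors in 2, Ncr1 and Klre1 (4.25% of genes). The exact permutation test of 3 tumors against 3 cannot give a p under 0.1, and it gave 0.1 for each of these separations.

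Averaged over SFIH, anti-PD-1 had higher Klr levels. At an unadjusted p under 0.05, 5 members were higher in the 6 tumors with anti-PD-1 than in the 6 without (13.4% of genes), again the Klr genes, with log2 fold changes of 1.55 for Klrk1 (SE 0.43, adjusted p = 0.0995), 1.72 for Klrc1 (SE 0.53, adjusted p = 0.118), 2.13 for Klrb1c, 1.31 for Klre1 and 1.0 for Klrd1. The values of Klrb1c and Klre1 were 1.17 and 0.85 without Comb tumor 3. DESeq2 called 3 of them, Klrk1 (adjusted p = 0.00949), Klrc1 (adjusted p = 0.0143) and Klrb1c (adjusted p = 0.0369), beside 7.34% of genes, and without Comb tumor 3 it called Klrk1 and Klrc1, beside 4.97% of genes called higher in that fit. In the exact permutation test within levels of SFIH, which was run on each of the 10 genes without adjustment and whose smallest p is 0.005, the difference in log2(CPM + 1) was 1.18 for Klrk1 (p = 0.02) and 1.20 for Klrc1 (p = 0.045), and p was 0.09 or above for Klrb1c, Klre1 and Klrd1. Without SFIH tumor 2, SFIH tumor 3 or Comb tumor 3, the exact permutation p of Klrk1 was 0.055 each time, and that of Klrc1 was 0.06 to 0.125 without Con tumor 2, PD tumor 2, Comb tumor 2 or any of those 3. The count of 5 from edgeR was 3 (Klrk1, Klrc1 and Klrb1c) without Con tumor 1 or 2, SFIH tumor 2 or 3, or PD tumor 2, beside 10.7% to 11.9% of genes higher. Averaged over anti-PD-1, 4 members were higher with SFIH at an unadjusted p under 0.05 (9.11% of genes): Klrb1c by 2.32 (SE 0.76), Ncr1 by 1.55 (SE 0.65), Klre1 by 1.26 (SE 0.50) and Klrk1 by 0.98 (SE 0.43) on the log2 scale, with adjusted p-values from edgeR of 0.313 to 0.338. Klrb1c, Klre1 and Klrk1 were at 1.36, 0.81 and 0.58 without Comb tumor 3, and without SFIH tumor 1 Klrk1 was at 0.64 and Ncr1 at 0.79. Klrb1c alone was below that threshold without Con tumor 1 or 2, SFIH tumor 1, PD tumor 3 or Comb tumor 3 (5.69% to 7.25% of genes were higher), and 2 members were without PD tumor 1 (Klrb1c and Ncr1, beside 5.98%) or Comb tumor 2 (Klrb1c and Klre1, beside 11.2%), while 7 were higher without Comb tumor 1, beside 17.6% of all genes in that fit. The interaction term of both treatments was positive in 9 of the 10 genes (47.6% of all genes), with 2.49 for Klrb1c (SE 1.51), and none was below an unadjusted p of 0.05. Without Comb tumor 3 the term was positive in 5 of the 10 (49.1% of all genes) and was 0.57 for Klrb1c (SE 1.20), and without TMM it was positive in 6. With Comb tumor 1 left out, 2 members were below that threshold (Klrb1c and Klrk1, beside 17.2% of all genes), as were 2 with SFIH tumor 1 left out (Klrk1 and Ncr1, beside 1.83%), and none of the 10 was called in any setting.

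The size of the Comb values depended on single tumors. Comb tumor 3 held 56.7% of the summed Comb level of Klrk1, 61.6% of that of Klrc1 and 59.7% of that of Klre1, but 32.7% of that of Klrd1. Without it, the log2 fold changes against Con were 2.53 for Klrb1c, 1.82 for Klrc1, 1.74 for Klrk1 and 1.66 for Klre1, and DESeq2 called only Klrk1 of the 10 (adjusted p = 0.0289), beside 3.82% of genes called higher. In edgeR, the 5 Klr genes were then still higher, and Eomes was lower, at an unadjusted p under 0.05, beside 11.4% of genes higher and 7.43% lower. Without Comb tumor 1, which had the lowest summed Klr level in Comb, edgeR called 6 members in Comb against Con, the 5 Klr genes and Il15, beside 18.4% of all genes called higher. The direction of the Comb against Con difference held for all 10 genes whichever tumor was left out.

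**Figure D3:**
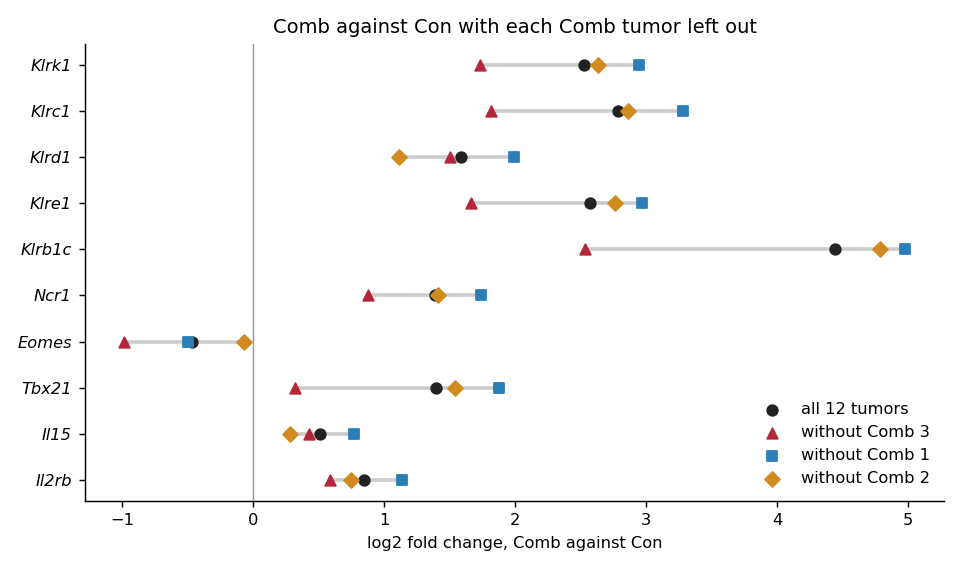
Log2 fold change of Comb against Con from edgeR with all 12 tumors and with each Comb tumor left out. Klrb1c runs from 2.53 without Comb 3 to 4.98 without Comb 1, whereas Il15 stays between 0.28 and 0.77 and Eomes is below 0 in every fit.

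The Klr genes varied together over the 12 tumors. Pearson's r of log2(CPM + 1) with TMM scaling was 0.97 between Klrk1 and Klrc1 (0.937 without Comb tumor 3) and 0.945 between Klrk1 and Klre1. Klrb1c and Klrd1 were the least alike of the 5 at 0.693. These correlations are descriptions over 12 tumors that share the treatments and the leukocyte content. Ncr1 had r of 0.781 with Klrb1c, 0.731 with Klre1, 0.728 with Klrk1, 0.675 with Klrc1 and 0.565 with Klrd1. Without Comb tumor 3 these were 0.712, 0.575, 0.571, 0.481 and 0.449. Eomes had r between -0.51 and 0.0136 with the other members, and between -0.725 and -0.192 without Comb tumor 3. Of the 13454 other genes tested, those most like the mean standardized level of the 10 members were Fam49a (r = 0.978), Fam107b (0.967), Dnase2a (0.966), Sirpa (0.962), a receptor of myeloid cells, and Clec2i (0.961). The genes most like Ncr1 were Tusc1 (r = 0.913), Zfp799 (0.899), Atp1b3 (0.896), Map3k6 (0.893) and B4galt4 (0.88).

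T cell markers moved with the Klr genes, as did leukocyte markers as a whole. The 12 T cell markers summed to 30.8 to 47.9 CPM in Con, 31.5 to 49.1 CPM in SFIH, 43.2 to 95.7 CPM in PD and 37.8 to 235 CPM in Comb. Of these markers, 11 were tested and 9 were higher in Comb than in Con at an unadjusted p under 0.05 (18.0% of all genes were), or 5 without Comb tumor 3, Trat1 was at 0 in all 12 tumors, and Cd6 and Lef1 were at 0 in Comb tumor 3. Pearson's r with the summed T cell markers was 0.972 for Klrc1, 0.944 for Klrk1 and 0.548 for Ncr1. Without Comb tumor 3 it was 0.942, 0.88 and 0.236. Over all 12 tumors it was 0.895 for Klre1, 0.874 for Klrb1c and 0.852 for Klrd1. With the summed leukocyte markers, r was 0.959 for Klrc1, 0.958 for Klrk1 and 0.61 for Ncr1. It was 0.918 for Klrb1c, 0.914 for Klre1 and 0.788 for Klrd1, so the pattern was not particular to T cell markers. In PD tumor 2, where T cell markers were at 95.7 CPM and Klrc1 at 22.2 CPM, Ncr1 was at 0.508 CPM, while in SFIH tumor 1, with T cell markers at 49.1 CPM, Ncr1 was at 4.49 CPM. Comb tumors 2 and 3, with the most T cell markers (114 and 235 CPM), had Ncr1 at 2.13 and 3.1 CPM. The reads of the 5 Klr genes per read of T cell markers, a ratio chosen after the counts were seen, were 0.52 to 0.666 in Con tumors, 0.61 to 1.19 with SFIH alone, 0.601 to 0.674 with anti-PD-1 alone and 0.782 to 0.906 with the combination. The Comb range of this ratio lay above those of Con and PD and inside that of SFIH. The 8 macrophage markers, from 558 to 1010 CPM in Con to between 1060 and 10900 CPM in Comb, were also all higher in Comb at an unadjusted p under 0.05, with and without Comb tumor 3. The 6 markers of ILC1, innate lymphocytes related to NK cells, and of tissue-resident innate lymphocytes summed to 167 to 376 CPM in Con, 221 to 464 CPM in SFIH, 108 to 339 CPM in PD and 423, 440 and 1660 CPM in Comb. Of these 6, 5 were higher in Comb than in Con at an unadjusted p under 0.05, and 2 were without Comb tumor 3. The part of T cells, of ILC1, of other leukocytes and of muscle, fat and skin tissue in the Klr differences was not tested.

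**Figure D4:**
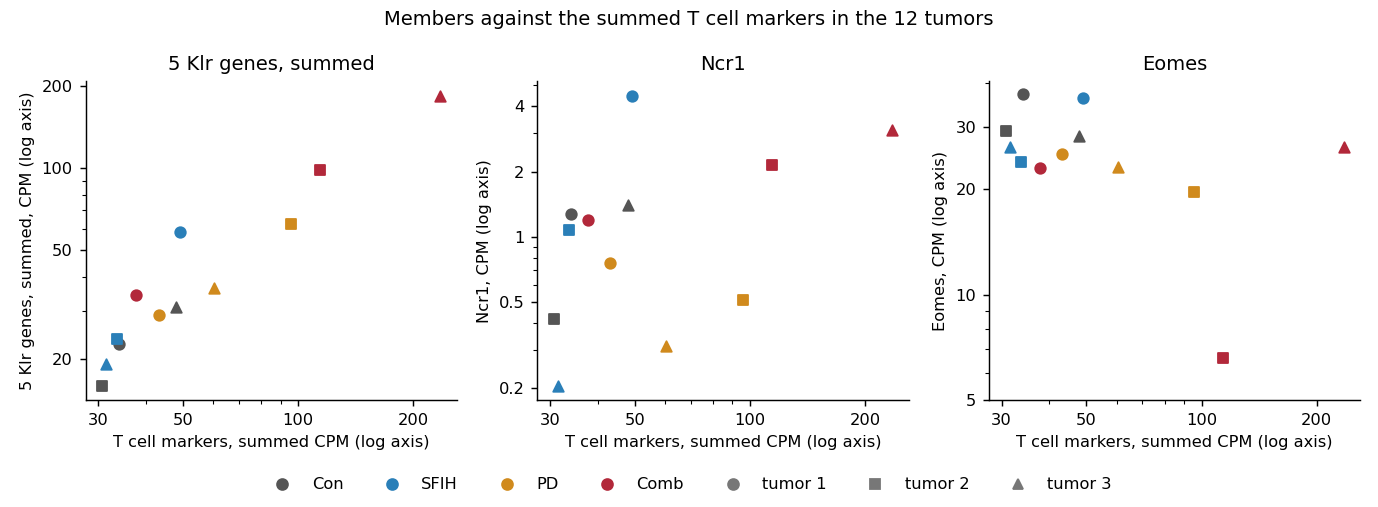
Summed level of the 5 Klr genes, and levels of Ncr1 and Eomes, against the summed level of the 12 T cell markers in each tumor, in CPM on log axes, with colours for groups and symbols for tumors 1 to 3. The Klr sum runs from 16 CPM in Con tumor 2 to 184 CPM in Comb tumor 3 along the T cell markers, whereas Ncr1 is low in all PD tumors and Eomes is lowest in Comb tumor 2, at 6.6 CPM.

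The 10-gene NK cell marker list, which holds 4 of the members, did not separate the groups by its sum. It was at 81.5 to 103 CPM in Con, 69.9 to 131 CPM in SFIH, 64.6 to 82.5 CPM in PD and 77.7 to 210 CPM in Comb, and none of its genes was at 0 in all tumors. Its sum is carried by Eomes, Klra4 and Gzma outside Comb tumor 3. In Comb tumor 3, at 210 CPM, Gzma was at 104 CPM, Klrb1c at 32.3 CPM, Eomes at 26.4 CPM and Klra4 at 6.65 CPM. Klra4, which encodes an activating Ly49 receptor, was at 34 to 40.0 CPM in Con and at 33.6, 29.5 and 6.65 CPM in Comb, with the lowest value in the tumor where the Klr sum was highest. Of the 10 genes, 7 had a positive log2 fold change of Comb against Con, 4 were higher and 0 lower at an unadjusted p under 0.05, DESeq2 called 3 higher, and the median was 1.83. Of all genes, 18.0% were higher and 7.3% lower, and DESeq2 called 11.3% higher. Without Comb tumor 3, 2 were higher and 1 lower, beside 11.4% and 7.43% of all genes, DESeq2 called 0, and the median was 0.81.

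Most other NK receptors had positive differences between Comb and Con. Over all genes, 48.0% had a positive log2 fold change, 18.0% were higher and 7.3% lower at an unadjusted p under 0.05, and DESeq2 called 11.3% higher and 2.43% lower. Without Comb tumor 3, 11.4% were higher and 7.43% lower, and DESeq2 called 3.82% higher and 1.25% lower. Of 29 receptors outside the 10 genes in the count table, 19 passed the low-count filter and were tested. Of these 19, 17 had a positive log2 fold change against Con, 11 were higher and 0 lower at an unadjusted p under 0.05, and DESeq2 called 7 higher. The median was 1.56, beside 1.49 over the 10 members and -0.033 over all genes. Without Comb tumor 3, 3 were higher, DESeq2 called 1 and the median was 0.87. The largest differences were in Cd226 (DNAM-1, an activating receptor) at 5.09 (SE 1.45, adjusted p = 0.0747), Slamf6 at 3.25 (SE 1.43, adjusted p = 0.185) and Klri2 at 2.85 (SE 0.89, adjusted p = 0.0872), which were 2.70, 1.21 and 1.36 without Comb tumor 3. Cd226 was at 0.0991, 2.85 and 17.1 CPM in Comb against 0 to 0.399 CPM in Con, so its difference rested on Comb tumors 2 and 3. Slamf6 averaged 0.352 CPM in Con (SD 0.313) and 2.54 CPM in Comb (SD 3.22). Cd226 and Slamf6, this low in Con, passed the low-count filter through tumors of other groups, so they are no separate support for a difference. The 2 receptors with a negative difference were Crtam (-0.99, SE 0.68) and Klra4 (-0.50, SE 0.41), at -0.64 and -0.10 without Comb tumor 3 and at -2.08 and -0.77 without Comb tumor 2.

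The ligands of these receptors had differences of both signs, and Raet1b and Pvr, which activating receptors bind, were lower. Raet1b, a ligand of NKG2D, was at 9.76, 12.6 and 12.2 CPM in Con, 14.8, 12.7 and 9.31 CPM in SFIH, 3.87, 6.23 and 6.07 CPM in PD, and 5.75, 3.35 and 3.28 CPM in Comb. The 6 tumors with anti-PD-1 all lay below the 6 without, as did 1.95% of all genes. The Raet1 genes are close copies of each other, so reads may have been shared among them. Raet1b had a log2 fold change of -1.23 for Comb against Con (SE 0.29, adjusted p = 0.0665 with edgeR), which DESeq2 called with and without Comb tumor 3, and of -1.15 for anti-PD-1 against none (SE 0.21, adjusted p = 0.0973). Pvr, a ligand of DNAM-1, was at 81.6 to 112 CPM in Con and at 54.2, 37.6 and 7.19 CPM in Comb (log2 fold change -1.39, SE 0.47, adjusted p = 0.103), and its difference was -0.94 without Comb tumor 3. Raet1c, with at most 20 counts in a tumor and 6, 0 and 0 counts in Comb, was at -1.93 (SE 1.13, adjusted p = 0.294), or -1.16 without Con tumor 3 and -6.11 without Comb tumor 1, where no Comb read was left. Cd48, the ligand of a SLAM family receptor and itself carried by leukocytes, was higher at 2.55 (SE 0.70), as was H2-T23, which encodes the ligand of the CD94 and NKG2A pair, at 1.43 (SE 0.61), or 1.5 and 1.01 without Comb tumor 3. Of the 11 tested ligands, 5 had a positive difference, 2 were higher and 2 lower at an unadjusted p under 0.05, and the median was -0.17. The 2 of 11 higher are near the 18.0% of all genes. With Comb tumor 3 left out, 6 had a positive difference, 1 was higher and 2 lower, and the median turned to 0.05.

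Most adaptors and signaling genes of these receptors had positive differences. Of 17 tested, 12 were higher and 1 lower in Comb than in Con at an unadjusted p under 0.05, DESeq2 called 9 higher and 1 lower, and the median was 1.63. Without Comb tumor 3, 9 were higher and 1 lower, DESeq2 called 4 higher and 0 lower, and the median was 0.96. Of all genes, 18.0% were higher and DESeq2 called 11.3% higher, or 11.4% and 3.82% without Comb tumor 3. Hcst, which encodes DAP10, the signaling partner of NKG2D, was at 2.29 to 4.29 CPM in Con, 3.63 to 4.89 CPM in SFIH, 4.92 to 10.7 CPM in PD and at 4.56, 17.8 and 76.5 CPM in Comb (log2 fold change 3.79, SE 0.89, adjusted p = 0.0665). Tyrobp (DAP12), which macrophages also carry, was at 3.43 (SE 0.80), and Fcer1g at 2.58. These 3 differences were 2.02, 1.72 and 1.33 without Comb tumor 3. Plcg2, a phospholipase of B cells and NK cells, was lower at -0.65, or -0.49 without that tumor, and Ptpn11, the phosphatase SHP-2, was at -0.43 (SE 0.24), from -0.74 without Comb tumor 1 to -0.18 without Comb tumor 3.

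**Figure D5:**
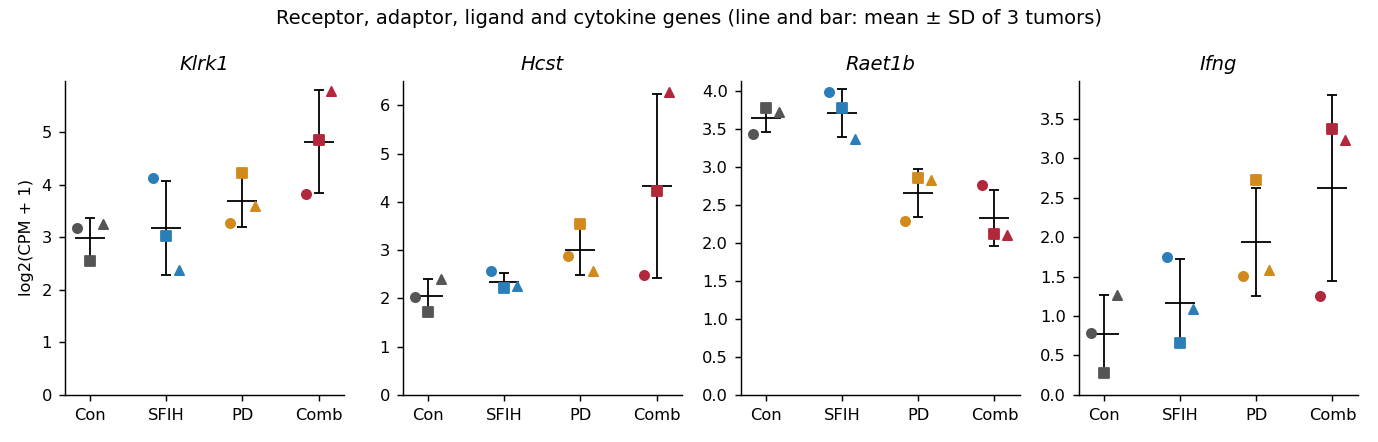
Levels, log2(CPM + 1), of the NKG2D gene Klrk1, its adaptor Hcst, its ligand Raet1b and the effector cytokine Ifng in each tumor, with the line and bar the mean and SD of 3 tumors. Raet1b lies at 3.28 to 6.23 CPM in the 6 tumors with anti-PD-1 and at 9.31 to 14.8 CPM in the 6 without, while Klrk1 and Hcst are highest in Comb tumor 3.

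Among the cytokine signaling genes, 8 of 18 tested were higher in Comb than in Con at an unadjusted p under 0.05 and 0 were lower, with 6 called by DESeq2 and a median of 0.90. Of all genes, 18.0% were higher this way and DESeq2 called 11.3% higher. When Comb tumor 3 was left out, 9 of 19 tested were higher, DESeq2 called 4, and the median was 0.66. The shares of all genes were then 11.4% higher and 3.82% called higher. Il18r1, a chain of the interleukin 18 receptor, had a log2 fold change of 2.98, Stat4, the factor activated by interleukin 12, of 2.75, and Il18 itself of 1.98, which were 2.49, 1.75 and 1.17 without Comb tumor 3. The lowest were Il12rb1, a chain of the interleukin 12 receptor, at -0.47 (SE 0.34), Stat5a at -0.40 (SE 0.25) and Jak3, a kinase bound to the common gamma chain, at -0.38 (SE 0.35). With a tumor left out these ran from -0.78 (Comb 1) to -0.24 (Comb 3), from -0.67 (Comb 1) to -0.23 (Comb 2) and from -0.61 (Con 2) to -0.0992 (Comb 2). The partners of Il15 signaling were named after their values were seen: Il2rg, the common gamma chain, was at 73.0 to 89.3 CPM in Con and 105 to 184 CPM in Comb (log2 fold change 1.19, SE 0.26, adjusted p = 0.0665), and Il15ra was at 0.73 to 4.69 CPM in Con, 6.96 to 14.5 CPM in SFIH, 2.72 to 11 CPM in PD and 3.55 to 10.7 CPM in Comb (1.58 for Comb against Con, SE 0.69, adjusted p = 0.181). Of 15 transcription factors, 4 were higher and 0 lower, beside 18.0% and 7.3% of all genes, DESeq2 called 3, and the median was 0.37. Without Comb tumor 3, 1 was higher, beside 11.4% of all genes, DESeq2 called 0, and the median was 0.11. The largest differences among them were in Ikzf3 at 2.96, Tox at 2.48 (with 6.65 CPM in Comb tumor 3 and at most 1.52 CPM in the other Comb tumors) and Id2 at 2.13, or 1.89, 0.94 and 0.87 without Comb tumor 3. The lowest were Tcf7 at -0.96 (SE 0.89), Ets1 at -0.42 (SE 0.36) and Klf2 at -0.33 (SE 0.25). With a tumor left out, Tcf7 ran from -2.13 (Comb 2) to -0.36 (Con 1), Ets1 from -0.84 (Comb 1) to -0.0649 (Comb 3) and Klf2 from -0.45 (Comb 2) to -0.13 (Comb 3).

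Most cytotoxic effectors had positive differences, and Gzmc was lower. Of 14 tested, 9 were higher and 1 lower at an unadjusted p under 0.05, DESeq2 called 7 higher and 1 lower, and the median was 1.66. Leaving out Comb tumor 3, 7 were higher and 1 lower, DESeq2 called 3 higher and 1 lower, and the median was 1.04. Of all genes, 18.0% were higher and DESeq2 called 11.3% higher, or 11.4% and 3.82% without that tumor. Ifng, the interferon made by NK and T cells, was at 0.73, 0.208 and 1.4 CPM in Con and at 1.39, 9.35 and 8.38 CPM in Comb (log2 fold change 3.38, SE 0.93, adjusted p = 0.0717), and Srgn and Nkg7, of the cytotoxic granule, differed by 3.05 and 2.98. The values for Ifng, Srgn and Nkg7 were 3.01, 1.86 and 1.59 without Comb tumor 3. Gzmc, a granzyme of strongly stimulated lymphocytes, went the other way, with 76.9 to 121 CPM in Con, 62.2 to 229 CPM in SFIH, 21.1 to 56.0 CPM in PD and 8.2 to 21.5 CPM in Comb. Gzmc did not overlap between the tumors with and without anti-PD-1, as Raet1b did not (1.95% of all genes were below this way), and its log2 fold change of Comb against Con was -2.45 (SE 0.53, adjusted p = 0.0665), or -2.22 without Comb tumor 3. Prf1, the perforin gene, had at most 4.29 CPM in a tumor and a log2 fold change of -2.01 (SE 1.0, adjusted p = 0.232), which ran from -4.36 without Comb tumor 1 to -1.45 without Comb tumor 3.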

How the data were processed

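Tumor RNA was sequenced with the QuantSeq 3′ mRNA-Seq kit, as single-end reads of 75 bases that start near the end of each transcript. The authors deposited raw counts of reads per gene symbol for the 12 tumors, with no normalization; the aligner, counter, build and annotation are not given in the sources used here. Columns were assigned to groups by their names and the labels. Counts were fitted in R 4.3.3 with edgeR 4.0.16 (filterByExpr, TMM, quasi-likelihood test, 1 fit of all 12 tumors), with Benjamini-Hochberg adjustment over 13464 genes and a threshold of 0.05. DESeq2 1.42.0 was an alternative. SE is the absolute log2 fold change divided by the square root of F. Levels are log2(CPM + 1) without TMM, with two-sided exact permutation tests whose smallest p is 0.1 for 3 tumors against 3 and 0.005 within levels of SFIH. Correlations of genes and markers over the tumors used log2(CPM + 1) with TMM. The fits were tested on simulated data.

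The members, lists and tests were chosen with earlier results of these data known, and the lists were written from general knowledge. By the rule for named genes, the text names all 10 members, from each list at most 3 higher and 3 lower genes by size of the log2 fold change between Comb and Con and at least 50 counts in all, and the 5 genes most like the members and most like Ncr1. Python 3.11.15, with pandas 2.3.3 and matplotlib 3.10.9, gave the tables and plots. Alternatives were other scalings and filters, a fit of the compared groups only, a replicate block, another pseudocount (0.25 instead of 1) and each tumor left out.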

Additional observations from a re-analysis of the deposited data

How the results depend on the processing

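No member passed an adjusted p of 0.05 in any of the 8 comparisons with edgeR. With DESeq2, 5 did for Comb against Con (13.8% of all genes called) and 1 for Comb against PD (2.81%). It called 4 for Comb against SFIH (7.78%) and 3 for anti-PD-1 against none (8.62%). DESeq2 without Comb replicate 3, an alternative chosen after seeing the data, called 1 for Comb against Con (5.07%) and 2 for anti-PD-1 against none (6.66%). Leaving out each tumor gave 0 to 6 called for Comb against Con, 0 to 4 for Comb against PD, 0 to 5 for Comb against SFIH and 0 to 4 for anti-PD-1, and only the removal of Comb tumor 1 gave any, where 28.5%, 15.2%, 22.5% and 17.1% of all genes were called. Counts at an unadjusted p under 0.05 ran from 4 to 8 for Comb against Con, from 0 (without Comb tumor 3; also 0 with DESeq2 without it) to 7 (without Comb tumor 1) for Comb against PD, with 1 without PD tumor 1 and 2 without PD tumor 3, and from 3 to 6 for anti-PD-1, where no TMM also gave 3. They ran from 2 to 6 for Comb against SFIH and from 1 to 7 for SFIH against none, where DESeq2 without Comb replicate 3 also gave 1. With a tumor left out, the share of all genes under that p, in either direction, ran from 17.3% to 43.5% (Comb against Con), 8.59% to 36.9% (Comb against PD), 10.8% to 39.3% (Comb against SFIH), 14.7% to 34.3% (anti-PD-1) and 9.3% to 29.4% (SFIH), highest each time without Comb tumor 1. Exact permutation p-values under 0.05 for anti-PD-1 were found for 0 (without SFIH tumor 3) to 5 members (without Comb tumor 1), and for 1 without SFIH tumor 2 or Comb tumor 3, beside 15.2%, 38.9%, 11.5% and 21.4% of all genes. Complete separation of Comb from Con covered 3 to 9 members, with 6 without Con tumor 3 (11.8% of all genes) and 9 without Comb tumor 1 (17.4%), and from PD 2 to 5 (15.1% at 5, without Comb tumor 1), or 1 with TMM (6.17%). The cause of these shifts was not tested.

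The replicate numbers did not pair the tumors: correlations of same-numbered tumors ran from -0.235 to 0.361, and 2 of 12 tumors were most like their own number. With the replicate block, 3 members in place of 5 had an unadjusted p under 0.05 for anti-PD-1, and no member was called. The share of all genes under that p was 16.5% in place of 18.7%. Leaving out TMM moved the median log2 fold change of all genes from -0.033 to -0.29 for Comb against Con and from -0.027 to -0.21 for anti-PD-1.

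Of 107 fold changes and levels, 90 kept their direction throughout, including all 10 members in Comb against Con. Tbx21 in SFIH against Con, at -0.0018, turned to 0.0078 without TMM, 0.013 with upper-quartile scaling, 0.004 without a filter and 0.16 with the block, and ran from -0.56 to 0.33 with a tumor left out. Il15 turned to -0.0041 (PD against Con) and -0.0918 (anti-PD-1) without TMM, and its level difference for anti-PD-1 to 0.076 with TMM. Tbx21 in Comb against PD turned to -0.0761 with DESeq2 without Comb replicate 3, and in SFIH against none to -0.0415. Ncr1 for anti-PD-1 turned to 0.0483 with the block, and its level difference to 0.11 with TMM and 0.007 with a pseudocount of 0.25. With a tumor left out, sign changes were confined to values with these ranges: Tbx21 -0.15 to 0.87 and Il15 -0.0392 to 0.16 (PD against Con), Ncr1 -0.67 to 1.36, Klrk1 -0.33 to 0.66, Klrc1 -0.16 to 0.83, Klre1 -0.0108 to 1.02 and Eomes -0.31 to 0.0011 (SFIH against Con), Eomes -0.59 to 0.32, Tbx21 -0.0939 to 1.53 and Il2rb -0.0117 to 0.77 (Comb against PD), Eomes -0.37 to 0.0866 and Tbx21 -0.0474 to 0.76 (SFIH against none), and Ncr1 -0.42 to 0.60 and Il15 -0.0035 to 0.24 (anti-PD-1), with the level difference of Ncr1 from -0.27 to 0.28. Depth limits Ncr1, which had 2 to 55 counts a tumor.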
